A study of Mus musculus with 20 samples.

Results

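The genes described here are the tumor necrosis factor (TNF) ligands, their receptors and the TNF-alpha-induced proteins, chosen by name: every gene whose single symbol on the platform is Tnf or starts with Tnfsf, Tnfrsf or Tnfaip. There were 35 such genes among 18194 measured, and each was read by its brightest probe set, judged by the average over the 20 arrays. They were measured on 20 Affymetrix arrays, from motor cortex and sensory cortex of 10 female C57Bl6 mice. Of these, 6 mice had experimental autoimmune encephalomyelitis (EAE), a mouse model of multiple sclerosis, after injection of the MOG35-55 peptide of myelin oligodendrocyte glycoprotein and of pertussis toxin at 8 to 12 weeks of age. Their average disease grade was 2.5 to 3.5, and tissue is labelled as taken on days 18 to 21 of EAE. The other 4 mice were healthy animals of the same strain, sex and age from the same cages, for which the labels give no sham treatment, so EAE and the injections cannot be told apart. Each mouse gave 1 array of tissue enriched for motor cortex and 1 of tissue enriched for sensory cortex, dissected from slices, and each of 2 cohorts held 3 EAE and 2 healthy mice. Values are log2 expression as deposited, and the number of arrays limits their precision.

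Ligands of the family are mostly membrane proteins, some of which are shed, and they bind receptors on neighbouring cells. Receptors with a death domain, such as TNFR1 (Tnfrsf1a), can signal through TRADD or FADD to NF-kB or to cell death, while receptors without one, such as TNFR2 (Tnfrsf1b), recruit TRAF proteins. Decoy receptors bind ligand without passing the signal on. Tnfaip genes were named for their induction by TNF, several of them through NF-kB, except Tnfaip8l1 and Tnfaip8l2, named for likeness to Tnfaip8. In the brain TNF comes mainly from microglia and infiltrating leukocytes, and it acts on endothelial cells, glia and neurons.

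Array medians lay between 8.22 and 8.32, and pairs of arrays within a group had correlations of 0.988 to 0.998 across probe sets. The dissection labels matched the levels of Rorb, a gene of layer 4 neurons that is abundant in sensory areas. Rorb averaged 10.73 ± 0.16 in motor and 11.94 ± 0.15 in sensory cortex of EAE mice (SD, n = 6 each). In healthy mice it averaged 10.90 ± 0.12 in motor and 12.02 ± 0.05 in sensory cortex (SD, n = 4 each). Of 9 measured excitatory neuron genes, 2 were higher and 2 lower in motor than sensory cortex at a limma adjusted p under 0.05, Rorb among the lower. Marker lists are given as counts of genes past an adjusted p under 0.05 with EAE, in motor and then sensory cortex, where 2.25% and 2.41% of all genes passed, and as medians of log2 EAE minus healthy. Homeostatic microglial genes had medians of -0.56 and -0.61, and 4 and 3 of 9 measured genes fell. Oligodendrocyte genes had medians of -0.41 and -0.36, and 4 and 1 of 9 fell. Endothelial genes had medians of -0.18 and -0.21, with 3 and 4 of 12 fallen and 1 and 2 risen. Genes of activated microglia and macrophages had medians of 0.30 and 0.39, with 1 and 5 of 10 risen and 1 and 0 fallen, and neutrophil genes had 0.25 and 0.26, with 3 and 1 of 10 risen. Glucocorticoid response genes had medians of 0.35 and 0.31, with 3 of 11 risen in each region. T cell genes had medians of 0.10 and 0.15, with Ccl5 in motor cortex the single one of 8 risen in either region. Lists of excitatory neurons, striatum, choroid plexus, mural cells and blood had no gene past the threshold in either region, and astrocyte genes had 1 of 10 in each direction in each region. Among the remaining lists, 1 of 8 genes of oligodendrocyte precursors fell and 1 of 10 of inhibitory neurons rose in each region, 1 of 7 of B and plasma cells fell in motor cortex, and 1 of 9 meningeal genes fell in motor cortex and 1 rose in sensory cortex. In such bulk tissue fewer cells of a type and less RNA per cell cannot be told apart.

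Promoter sequences of the family were looked up in a RefSeq table (build GRCm38.p6), which holds 250 bases before and 50 after each gene's start and had 28 of the 35 genes. The 10-letter consensus site of NF-kB was searched for on both strands. It was found at 6 of 28 family genes (21.4%), against 2581 of 27025 genes in the table (9.55%), and by windows at 6 of 33 (18.2%) against 2779 of 32851 (8.46%). The 6 genes were Tnfaip2, Tnfaip3, Tnfaip8l1, Tnfrsf8, Tnfrsf9 and Tnfrsf25. A match describes letters and not binding, and overlapping matches on opposite strands were counted in these shares once per window. The 2 windows below belong to the genes on which the results turn most: Tnfaip3, the family's clearest regional difference, and Tnfrsf25, its largest difference with EAE. Capitals mark the matches, and each window reads 5′ to 3′ along its gene; where the table lists several starts of a gene, the window with matches is shown. The window of Tnfaip3 is chr10:19015361-19015660 on the minus strand, with matches 125 bases before the start, where both strands match, and 12 bases before it. The window of Tnfrsf25 is chr4:152116093-152116392 on the plus strand, with matches 28 bases before the start and 36 bases after it.
Tnfaip3: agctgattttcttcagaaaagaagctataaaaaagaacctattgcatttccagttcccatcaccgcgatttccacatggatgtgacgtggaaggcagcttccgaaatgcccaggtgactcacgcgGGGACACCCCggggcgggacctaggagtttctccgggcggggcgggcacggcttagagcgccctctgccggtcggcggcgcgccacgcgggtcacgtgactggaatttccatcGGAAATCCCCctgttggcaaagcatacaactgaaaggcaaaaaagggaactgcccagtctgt
Tnfrsf25: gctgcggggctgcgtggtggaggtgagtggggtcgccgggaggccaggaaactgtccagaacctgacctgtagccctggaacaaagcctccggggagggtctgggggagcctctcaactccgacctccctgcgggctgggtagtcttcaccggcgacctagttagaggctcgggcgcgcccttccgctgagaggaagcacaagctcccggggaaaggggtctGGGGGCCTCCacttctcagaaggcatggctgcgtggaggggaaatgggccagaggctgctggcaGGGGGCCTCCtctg

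The first question was which members of the family changed with EAE in each region. With limma and a Benjamini-Hochberg adjustment over all 18194 genes, 0 of 35 family genes passed an adjusted p under 0.05 in motor cortex, where 2.25% of all genes did, and 0 of 35 passed in sensory cortex, where 2.41% did. At an unadjusted p under 0.05 there were 7 family genes in motor cortex (20%, against 15.9% of all genes), 3 with higher and 4 with lower values in EAE. In sensory cortex there were 5 (14.3%, against 18.5%), 2 higher and 3 lower. All EAE arrays lay on one side of all healthy arrays for 3 of 35 members in motor cortex (8.57%, against 5.68% of all genes) and for 0 of 35 in sensory cortex (against 6.49%). When the 2 arrays of each mouse were averaged, 0 of 35 passed the adjusted threshold, against 7.87% of all genes, and 11 passed the unadjusted one (31.4%, against 25.9%), 7 higher and 4 lower. That last count depended on the scaling and on single mice: with quantile normalization there were 5 members, 4 higher and 1 lower (14.3%, against 22.7% of all genes), and without healthy mouse 4 there were 6, 2 higher and 4 lower (17.1%, against 18.8%).

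The differences were small for nearly all members. The 95% interval lay within a 1.5-fold change for 34 of 35 family genes in motor and in sensory cortex (97.1%), against 97.3% and 95.1% of all genes, and Tnfrsf25 was the exception in both regions. Within a 1.25-fold change there were 24 in motor cortex (68.6%, against 78.5% of all genes) and 23 in sensory cortex (65.7%, against 68.7%). The members' median change was 0.05 in motor and 0.03 in sensory cortex, against -0.01 and 0.00 over all genes. Values stood above 0 for 21 and 24 of 35 members, against 46.9% and 50.3% of all genes, and for 22 with both regions averaged, against 50.1%. In sensory cortex the count was lower without healthy mouse 4, whose array was the lowest of its group for 15 members and the highest for 0. Without that mouse 18 of 35 were above 0 and the members' median was 0.0009. Within cohort 1 there were 17 above 0 in sensory cortex, with a median of -0.0029, and within cohort 2 there were 25, with a median of 0.10. That sign went with the level of signal. With the genes split by mean level into 3 equal parts, 17 members were in the lowest. Of these, 15 in motor and 14 in sensory cortex were above 0, and so were 70.6% and 73.6% of all genes of that part. Of the 16 in the middle, 6 and 10 were above 0, against 36.8% and 40.5% of its genes. The remaining 2 members, Tnfaip1 and Tnfrsf21, were in the highest and below 0 in both regions. The part of signal level in the members' signs was not tested further. Probe sets of 1 gene also differed in sign for Tnfrsf1b, Tnfrsf9, Tnfrsf10b, Tnfrsf22 and Tnfsf10 in motor cortex, and for Tnfaip2, Tnfrsf9, Tnfrsf10b, Tnfrsf11a, Tnfrsf11b, Tnfrsf22 and Tnfsf11 in sensory cortex.

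**Figure D1:**
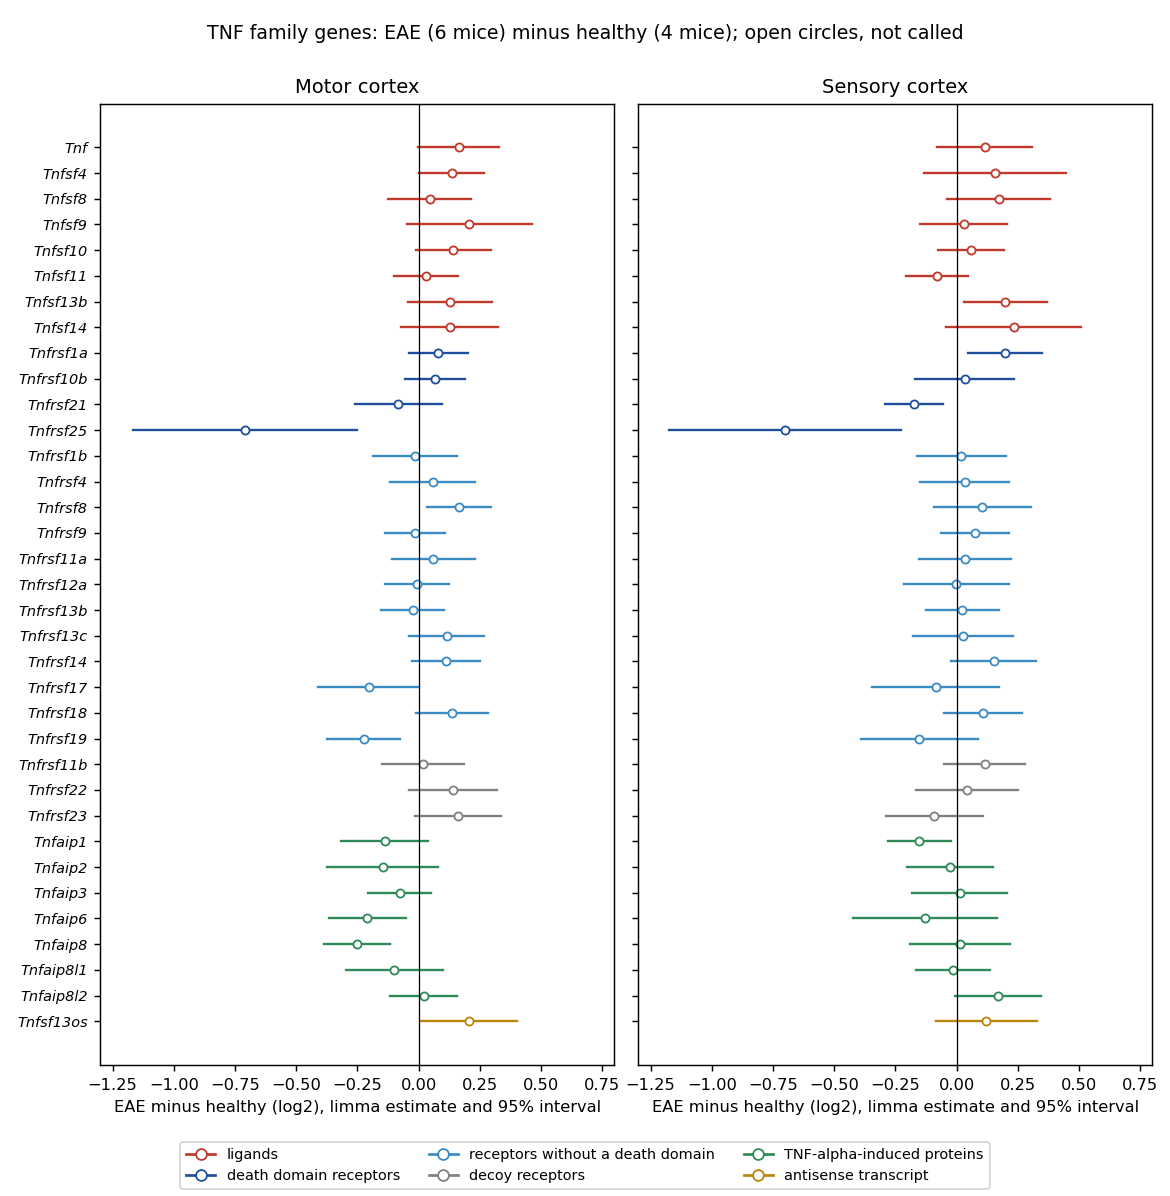
Change of each of the 35 TNF family genes with EAE in motor cortex (left) and sensory cortex (right). Points are limma estimates of log2 EAE minus healthy and lines their 95% intervals, with 6 EAE and 4 healthy mice; colours give the role, and open circles mark genes not past an adjusted p of 0.05, which is all of them. Tnfrsf25 lies farthest from 0 in both regions, at -0.71 and -0.70.

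Among the ligands, 8 were measured under a single symbol, and 0 passed the adjusted threshold in either region, with smallest adjusted p of 0.311 in motor and 0.195 in sensory cortex from limma and 1 ligand in each at an unadjusted p under 0.05, Tnfsf4 and Tnfsf13b. Their median change was 0.13 in motor and 0.14 in sensory cortex, and 8 and 7 of 8 values were above 0. Most of these ligands were in the part of genes with the lowest mean levels. In that part 70.6% and 73.6% of all genes were above 0, with medians of 0.05 and 0.07. How far signal level accounts for the ligands' values was not tested. Tnf itself, the founding cytokine of the family, spanned 7.72 to 8.03 with a median of 7.80 in motor cortex of EAE mice, against 7.81, 7.50, 7.68 and 7.62 in healthy mice. In sensory cortex it spanned 7.61 to 7.90 with a median of 7.66 in EAE mice, against 7.79, 7.53, 7.70 and 7.31 in healthy mice. The groups overlapped in both regions. Tnf differed by 0.16 ± 0.08 in motor cortex (SE, adjusted p = 0.32) and by 0.11 ± 0.09 in sensory cortex (adjusted p = 0.517). The highest EAE array was that of mouse 1 in motor and of mouse 3 in sensory cortex.

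Tnfsf13b encodes BAFF, a survival factor for B cells that astrocytes and myeloid cells can make. In sensory cortex it spanned 7.66 to 8.02 with a median of 7.81 in EAE mice, against 7.66, 7.49, 7.67 and 7.61 in healthy mice. Only the lowest EAE array reached into the healthy range. The difference was 0.20 ± 0.08 in sensory cortex (SE, adjusted p = 0.195) and 0.13 ± 0.08 in motor cortex (adjusted p = 0.477). The 2 other probe sets of Tnfsf13b gave 0.005 and 0.07 in sensory cortex and 0.23 and 0.13 in motor cortex, and the mean of its probe sets gave 0.09 in sensory cortex. Tnfsf4, the OX40 ligand that costimulates T cells, was the single member whose motor EAE arrays all lay above the healthy ones, by less than the rounding of the values, from 7.01 to 7.27 with a median of 7.05 in EAE mice, against 6.84 to 7.01 with a median of 6.99 in healthy mice. Such separation upward was seen for 1 of 35 members (2.86%) and 1.48% of all genes. The change of Tnfsf4 was 0.13 ± 0.06 in motor cortex (SE, adjusted p = 0.311) and 0.16 ± 0.13 in sensory cortex (adjusted p = 0.543), where EAE mouse 3 read 7.62 and the groups overlapped.

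Tnfsf10 encodes TRAIL, a ligand that can trigger apoptosis. Its brightest probe set changed by 0.14 ± 0.07 in motor cortex (SE, adjusted p = 0.36) and 0.06 ± 0.06 in sensory cortex (adjusted p = 0.618), while its 2 other probe sets stood at -0.01 and -0.10 in motor cortex, so the probe sets of this gene did not share a sign there. Tnfsf14 encodes LIGHT, a ligand of HVEM and of the lymphotoxin beta receptor. It spanned 6.31 to 7.03 in sensory cortex of EAE mice, with a median of 6.77, against 6.52, 6.58, 6.45 and 6.49 in healthy mice. The change of Tnfsf14 was 0.23 ± 0.12 in sensory cortex (SE, adjusted p = 0.354). Without EAE mouse 1, which gave the lowest value, the adjusted p of Tnfsf14 was 0.0193. In that fit 1009 genes passed, against 438 with every mouse. Leaving out the lowest EAE array favours a rise by construction, and no other alternative gave Tnfsf14 a pass in sensory cortex. Tnfsf8, Tnfsf9 and Tnfsf11, the ligands of CD30, 4-1BB and RANK, changed by 0.03 to 0.21 in motor and -0.08 to 0.17 in sensory cortex. The antisense transcript Tnfsf13os had 0.21 ± 0.09 in motor cortex (SE, adjusted p = 0.296) and 0.12 ± 0.09 in sensory cortex (adjusted p = 0.513).

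Tnfrsf25 showed the largest difference of the family. It encodes DR3, a death domain receptor for the ligand TL1A that is best known from T cells, where it costimulates. Motor cortex of EAE mice 1 to 6 read 8.52, 8.40, 8.93, 9.31, 7.96 and 8.44, against 9.13, 9.06, 9.67 and 9.36 in healthy mice 1 to 4. Sensory cortex read 9.02, 8.36, 8.92, 8.91, 8.14 and 8.40 in EAE mice, against 9.01, 9.04, 9.80 and 9.45 in healthy mice. In each region 1 EAE array lay within the healthy range, that of mouse 4 in motor and of mouse 1 in sensory cortex, and all the others lay below it. Tnfrsf25 differed by -0.71 in motor cortex (log2, SE 0.21, 95% interval -1.17 to -0.25, 1.64-fold, adjusted p = 0.113). In sensory cortex the change was -0.70 (SE 0.21, 95% interval -1.18 to -0.23, 1.63-fold, adjusted p = 0.12). The difference between the 2 regions' changes was -0.01 ± 0.14 (SE).

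Averaged over both arrays of a mouse, Tnfrsf25 changed by -0.71 ± 0.20 (SE, adjusted p = 0.0591). The value was larger in cohort 2, at -0.94 in motor and -1.14 in sensory cortex, than in cohort 1, at -0.48 and -0.26, and it passed in neither cohort alone. Without EAE mouse 4 the change in motor cortex passed, as did the average over both regions without EAE mouse 3 or mouse 4. EAE mouse 4 had the highest motor EAE array, so leaving it out favours a fall by construction. Leaving out any other single mouse gave no pass. This gene has a single probe set, so no second measurement was available. The T cell genes of the marker list had a mean level of 7.39 to 7.49 in motor cortex of EAE mice against 7.20 to 7.35 in healthy mice, and 7.40 to 7.71 against 7.14 to 7.39 in sensory cortex. Their part in the values of Tnfrsf25 was not tested.

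The other death domain receptors differed less. Tnfrsf1a encodes TNFR1, the receptor for soluble TNF. In sensory cortex Tnfrsf1a spanned 9.65 to 9.99 with a median of 9.77 in EAE mice, against 9.68, 9.57, 9.61 and 9.55 in healthy mice, so only the lowest EAE array fell within the healthy range. It changed by 0.20 ± 0.07 there (SE, adjusted p = 0.155) and by 0.08 ± 0.06 in motor cortex (adjusted p = 0.523), and the change differed between regions by -0.12 ± 0.07, with an adjusted p of 1 for that difference. A fit of all 20 arrays with the mouse as a random block gave Tnfrsf1a an adjusted p of 0.0459 in sensory cortex. That fit called 1015 genes there, against 438 in the fit reported, and no other alternative called Tnfrsf1a. Tnfrsf21 encodes DR6, a receptor abundant in neurons. In sensory cortex it spanned 11.75 to 11.97 with a median of 11.87 in EAE mice, against 11.97, 11.99, 12.14 and 12.05 in healthy mice, and the groups met at 11.97. Its change was -0.17 ± 0.05 in sensory cortex (SE, adjusted p = 0.124) and -0.08 ± 0.08 in motor cortex (adjusted p = 0.677), and a second probe set stood at -0.29 and -0.13. Tnfrsf10b, the mouse TRAIL receptor, changed by 0.07 and 0.03.

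**Figure D2:**
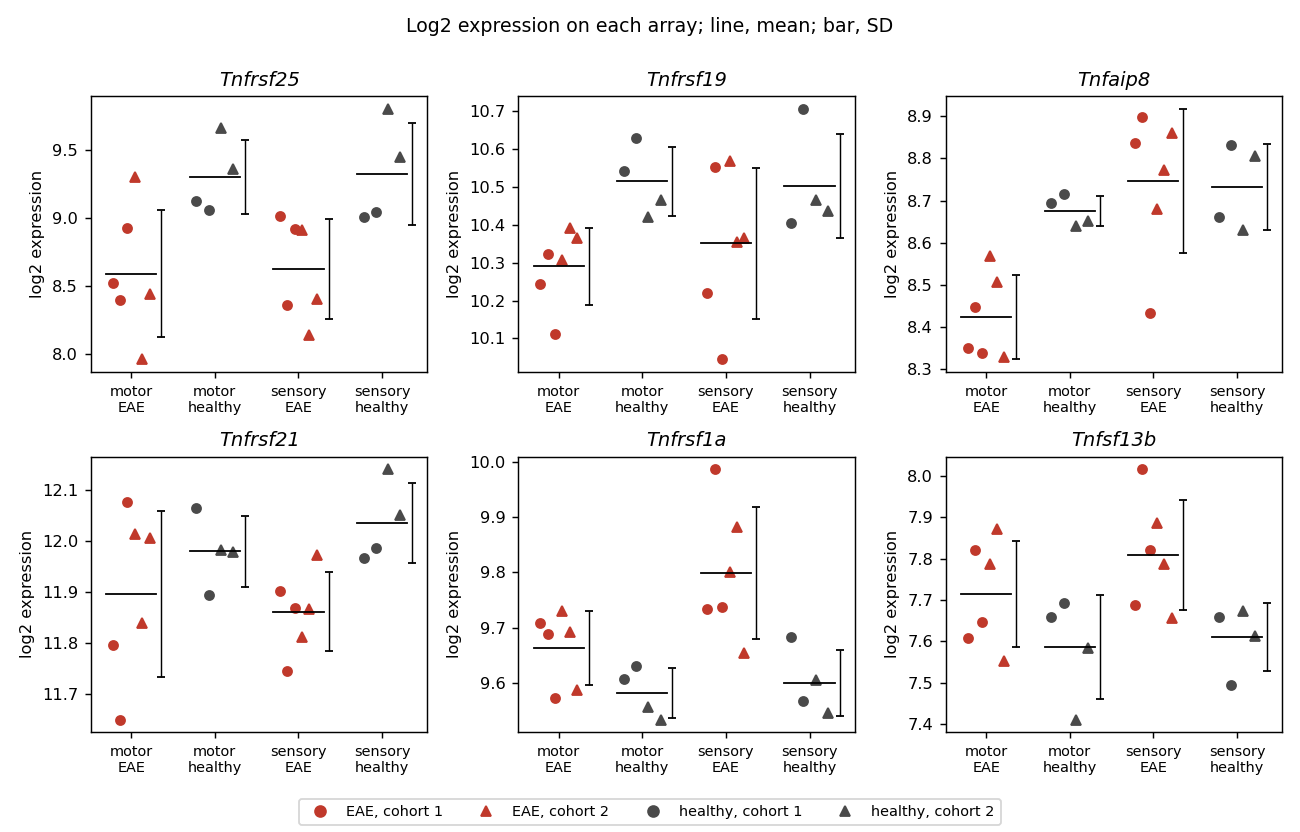
Log2 expression on each array for 6 family genes, with EAE mice left of healthy mice in motor and in sensory cortex. Points are single arrays, circles for cohort 1 and triangles for cohort 2, lines are group means and bars are SD (n = 6 and 4). All EAE arrays of Tnfrsf25 but 1 in each region lie below the healthy ones, and those of Tnfaip8 lie below them in motor cortex only.

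Of the receptors without a death domain, 12 were measured and 0 passed in either region, with smallest adjusted p of 0.122 and 0.335; at an unadjusted p under 0.05 there were 2 in motor cortex (Tnfrsf8 and Tnfrsf19) and 0 in sensory cortex. Tnfrsf19 encodes TROY, which takes part in the Nogo receptor complex and is expressed in glia and progenitors. All motor EAE arrays of Tnfrsf19 lay below the healthy ones, at 10.11 to 10.39 with a median of 10.32 in EAE mice, against 10.54, 10.63, 10.42 and 10.47 in healthy mice. Separation downward in motor cortex was seen for 2 of 35 members (5.71%), Tnfrsf19 and Tnfaip8, and for 4.19% of all genes. In sensory cortex it was seen for 0 of 35 members, against 4.04% of all genes. Tnfrsf19 changed by -0.22 ± 0.07 in motor cortex (SE, adjusted p = 0.122) and -0.15 ± 0.11 in sensory cortex (adjusted p = 0.478). Its 2 other probe sets gave -0.26 and -0.18 in motor and -0.16 and -0.16 in sensory cortex, the same sign throughout. Oligodendrocyte genes, lower in the same EAE arrays, had mean levels of 11.24 to 11.47 in motor cortex of EAE mice against 11.54 to 11.94 in healthy mice, and their part in the values of Tnfrsf19 was not tested.

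Tnfrsf1b, the TNFR2 receptor of microglia and T cells, stood at 8.42 ± 0.15 in motor cortex of EAE mice and 8.44 ± 0.07 in that of healthy mice (SD, n = 6 and 4). Its change was -0.01 ± 0.08 in motor cortex (SE, 95% interval -0.19 to 0.16) and 0.02 ± 0.08 in sensory cortex (95% interval -0.16 to 0.20). Tnfrsf12a, the TWEAK receptor Fn14, changed by -0.01 ± 0.06 in motor cortex (SE, 95% interval -0.14 to 0.13). Tnfrsf8, which encodes the lymphocyte receptor CD30, spanned 7.16 to 7.41 in motor cortex of EAE mice, with a median of 7.36, against 7.14, 7.07, 7.26 and 7.19 in healthy mice, a change of 0.17 ± 0.06 (SE, adjusted p = 0.197). Tnfrsf17, the plasma cell receptor BCMA, had -0.20 ± 0.09 in motor cortex (SE, adjusted p = 0.319), and Tnfrsf14, the LIGHT receptor HVEM, had 0.15 ± 0.08 in sensory cortex (SE, adjusted p = 0.335). Tnfrsf4 (OX40), Tnfrsf9 (4-1BB), Tnfrsf11a (RANK), Tnfrsf13b (TACI), Tnfrsf13c (the BAFF receptor) and Tnfrsf18 (GITR) lay between -0.02 and 0.14 in both regions.

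The decoy receptors were Tnfrsf11b, Tnfrsf22 and Tnfrsf23. Tnfrsf11b encodes osteoprotegerin, which binds RANK ligand, and the other two are mouse decoys for TRAIL. They changed by 0.02 to 0.16 in motor and -0.09 to 0.12 in sensory cortex, and 0 of 3 passed, with smallest adjusted p of 0.357 and 0.438 and 0 at an unadjusted p under 0.05. Tnfrsf11b had 0.02 ± 0.08 in motor and 0.12 ± 0.07 in sensory cortex (SE).

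Of the 7 genes with Tnfaip symbols, Tnfaip8l1 and Tnfaip8l2 among them, 0 passed in either region. The smallest adjusted p from limma was 0.0567 in motor cortex, that of Tnfaip8, and 0.2 in sensory cortex. At an unadjusted p under 0.05 there were 2 in motor cortex (Tnfaip6 and Tnfaip8) and 1 in sensory cortex (Tnfaip1). The median change of the 7 was -0.14 in motor and -0.02 in sensory cortex. Values above 0 numbered 1 of 7 in motor cortex, that of Tnfaip8l2, and 3 of 7 in sensory cortex. Most of the 7 were in the part of genes with middle mean levels, where 36.8% and 40.5% of all genes were above 0. Tnfaip8, a lipid-binding protein named also for its role in cell survival, read 8.35, 8.45, 8.34, 8.57, 8.51 and 8.33 in motor cortex of EAE mice 1 to 6, against 8.69, 8.71, 8.64 and 8.65 in healthy mice 1 to 4. In sensory cortex it read 8.84, 8.90, 8.43, 8.68, 8.77 and 8.86 in EAE mice, against 8.66, 8.83, 8.63 and 8.81 in healthy mice. The groups were apart in motor cortex and overlapped in sensory cortex. Tnfaip8 changed by -0.25 ± 0.06 in motor cortex (SE, 95% interval -0.39 to -0.12, adjusted p = 0.0567) and by 0.01 ± 0.09 in sensory cortex (adjusted p = 0.948). The difference of these changes was -0.27 ± 0.10, which had an unadjusted p of 0.0256 and an adjusted p of 1, where 0% of all genes passed. Of the single mice left out, only EAE mouse 4, which had the highest motor EAE array, gave Tnfaip8 a pass in motor cortex. Leaving out that array favours a fall by construction. The dimmer probe set of Tnfaip8, at a mean of 4.75, gave -0.08 in motor cortex.

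Tnfaip3 encodes A20, a ubiquitin-editing enzyme that limits NF-kB signalling and is itself a classical NF-kB target. Its change with EAE was -0.08 ± 0.06 in motor cortex (SE, adjusted p = 0.57) and 0.01 ± 0.09 in sensory cortex (adjusted p = 0.953). Tnfaip6 encodes the hyaluronan-binding protein TSG-6. It spanned 8.14 to 8.42 with a median of 8.23 in motor cortex of EAE mice, against 8.42, 8.51, 8.60 and 8.31 in healthy mice, a change of -0.21 ± 0.07 (SE, adjusted p = 0.17), and changed by -0.13 ± 0.13 in sensory cortex (adjusted p = 0.624). Tnfaip1, an adaptor of a cullin ubiquitin ligase, had -0.14 ± 0.08 in motor and -0.15 ± 0.06 in sensory cortex (SE, adjusted p = 0.45 and 0.2). Tnfaip2, an exocyst-related protein of tunnelling nanotubes, had -0.15 ± 0.10 and -0.03 ± 0.08 (SE), and EAE mouse 6 gave its highest value in both regions. Its 2 other probe sets had the opposite sign in sensory cortex, at 0.20 and 0.15, and stood at -0.02 and -0.06 in motor cortex. Tnfaip8l2, the immune regulator TIPE2, had 0.02 ± 0.06 and 0.17 ± 0.08 (SE, adjusted p = 0.909 and 0.291). Tnfaip8l1 had -0.10 and -0.02.

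Whether the change with EAE differed between the regions was tested on each mouse's motor minus sensory value. At the adjusted threshold 0 of 35 members passed, and 0% of all genes did in limma. At an unadjusted p under 0.05 there were 2 members (5.71%, against 2.32% of all genes), Tnfaip8 and the decoy receptor Tnfrsf23. That count depended on the setting. Without healthy mouse 1 it was 0 (against 2.15% of all genes), and within cohort 2 it was 0 (against 3.99%). With the mean of all probe sets of a gene it was 3 (8.57%, against 2.13%). No member's change with EAE was shown to differ between motor and sensory cortex.

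Motor cortex was then compared with sensory cortex within the 10 mice, with EAE and healthy mice together. Tnfaip3 was higher and Tnfaip8 lower in motor cortex, and these 2 of 35 members (5.71%) passed, against 13.2% of all genes. Tnfaip3 averaged 9.25 ± 0.07 in motor and 9.05 ± 0.16 in sensory cortex of EAE mice (SD, n = 6 each), and 9.33 ± 0.07 in motor and 9.04 ± 0.08 in sensory cortex of healthy mice (SD, n = 4 each). Motor minus sensory was 0.09, 0.03, 0.46, 0.21, 0.25 and 0.14 in EAE mice 1 to 6, and 0.30, 0.34, 0.22 and 0.29 in healthy mice 1 to 4. It was above 0 in 10 of 10 mice, by 0.23 ± 0.04 (SE, 95% interval 0.15 to 0.32, adjusted p = 0.0014). In healthy mice alone the difference was 0.29 ± 0.05 (SE, adjusted p = 0.00548) and in EAE mice alone 0.20 ± 0.06 (adjusted p = 0.139). Within cohort 1 it was 0.25 (adjusted p = 0.154) and within cohort 2 it was 0.22 (adjusted p = 0.0205). A second, dimmer probe set of Tnfaip3 gave 0.04 ± 0.08 (SE).

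For Tnfaip8 motor minus sensory was -0.49, -0.45, -0.10, -0.11, -0.27 and -0.53 in EAE mice 1 to 6, and 0.03, -0.12, 0.01 and -0.15 in healthy mice 1 to 4. All 6 EAE mice were below 0, and 8 of 10 mice in all. The value over all mice was -0.22 ± 0.06 (SE, 95% interval -0.34 to -0.09, adjusted p = 0.0246), in EAE mice alone -0.32 ± 0.07 (adjusted p = 0.0382) and in healthy mice alone -0.06 ± 0.06 (adjusted p = 0.624). The call on Tnfaip8 was lost without EAE mouse 1, 2, 5 or 6, within each cohort, at -0.22 and -0.21, and with the mean of its probe sets, which gave -0.06. At an unadjusted p under 0.05 there were 9 members (25.7%, against 25.2% of all genes), 4 higher and 5 lower in motor cortex. Tnf was among them at 0.10 ± 0.05 and Tnfrsf1a at -0.09 ± 0.04 (SE, adjusted p = 0.186 and 0.133).

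**Figure D3:**
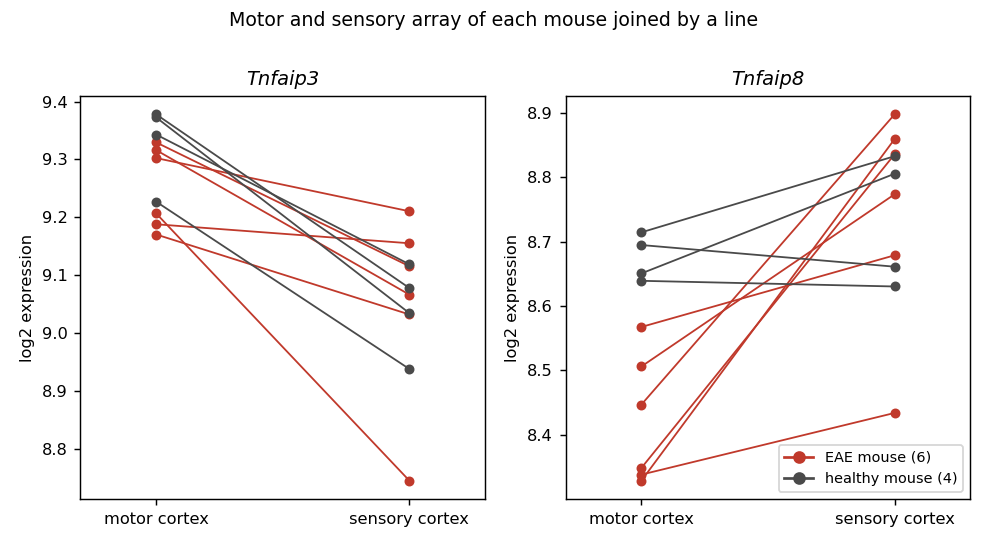
Log2 expression of Tnfaip3 and Tnfaip8 in motor (left) and sensory cortex (right), with a line joining the 2 arrays of each mouse, EAE mice and healthy mice in separate colours. Tnfaip3 is higher in motor cortex in 10 of 10 mice, and Tnfaip8 is lower there in all 6 EAE mice.

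The wider pathway was described by lists of genes outside the naming rule. Of 15 genes listed as TNF family genes with other symbols, 0 passed in motor and 0 in sensory cortex in limma. The list includes Edaradd, an adaptor of a family receptor. At an unadjusted p under 0.05 there were 2 in motor and 1 in sensory cortex, against 15.9% and 18.5% of all genes. Fas, a death receptor of the family, rose by 0.20 ± 0.05 when both regions were averaged (SE, limma adjusted p = 0.0307). No other of the 15 passed there, where 7.87% of all genes did. The list's median there was 0.07, beside 0.05 for the 35 genes and 0.00 for all genes. Of 14 measured receptor adaptors and ubiquitin ligases, Birc3, the ubiquitin ligase cIAP2 and an NF-kB target, averaged 7.86 ± 0.07 in sensory cortex of EAE mice and 7.46 ± 0.09 in that of healthy mice (SD, n = 6 and 4). It rose by 0.40 ± 0.06 there (SE, adjusted p = 0.014), against 0.30 ± 0.08 in motor cortex, which missed the threshold (adjusted p = 0.066). Over both regions Birc3 rose by 0.35 and Traf2, the adaptor that recruits it, fell by 0.17 on the log2 scale. No other of the 14 passed over both regions, where 7.87% of all genes did. In sensory cortex Birc3 alone passed, where 2.41% of all genes did. Ripk1 and Traf3 were not measured under a single symbol and are not analysed here.

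Of 18 measured NF-kB subunits, inhibitors and kinases, Nfkbiz, an inducible co-regulator of NF-kB, rose by 0.42 ± 0.09 in sensory cortex (SE, adjusted p = 0.0463). Over both regions Nfkbiz rose by 0.36 and Bcl3, a related protein, by 0.24, and Nfkbia, the inhibitor IkB alpha, had 0.30 with an adjusted p of 0.0531. Of the 18 only Nfkbiz passed in sensory cortex, where 2.41% of all genes did. Only Nfkbiz and Bcl3 passed over both regions, where 7.87% of all genes did. Of 8 measured cell death effectors 0 passed in motor cortex, sensory cortex or their average. At an unadjusted p under 0.05 there were 1, 2 and 2, all lower in EAE, against 15.9%, 18.5% and 25.9% of all genes. Diablo and Bid had the smallest p. Among 8 genes of shedding and processing, Rhbdf2, a partner of the TNF-shedding enzyme ADAM17, rose by 0.16 over both regions. No other of these 8 passed there, where 7.87% of all genes did.

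Of 16 endothelial and glial genes known to respond to TNF, 1 rose in motor cortex (Lcn2, against 2.25% of all genes called) and 3 in sensory cortex (Lcn2, Icam1 and Ccl2, against 2.41%), and the others did not pass. Lcn2, the secreted protein lipocalin 2, averaged 8.03 ± 1.11 in motor cortex of EAE mice and 5.36 ± 0.10 in that of healthy mice, and 8.70 ± 1.41 and 5.22 ± 0.17 in sensory cortex (SD, n = 6 and 4). Over both regions 4 of 16 passed, against 7.87% of all genes, with Lcn2 at 3.07, the chemokine Cxcl10 at 1.13, the adhesion molecule Icam1 at 0.51 and the chemokine Ccl2 at 0.44. The list's median was 0.16 in motor cortex, 0.21 in sensory cortex and 0.17 over both. These genes also respond to other cytokines: interferon response genes had a median change of 0.75 in motor and 1.07 in sensory cortex, with 0 and 3 of 10 risen, and their part was not tested.

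**Figure D4:**
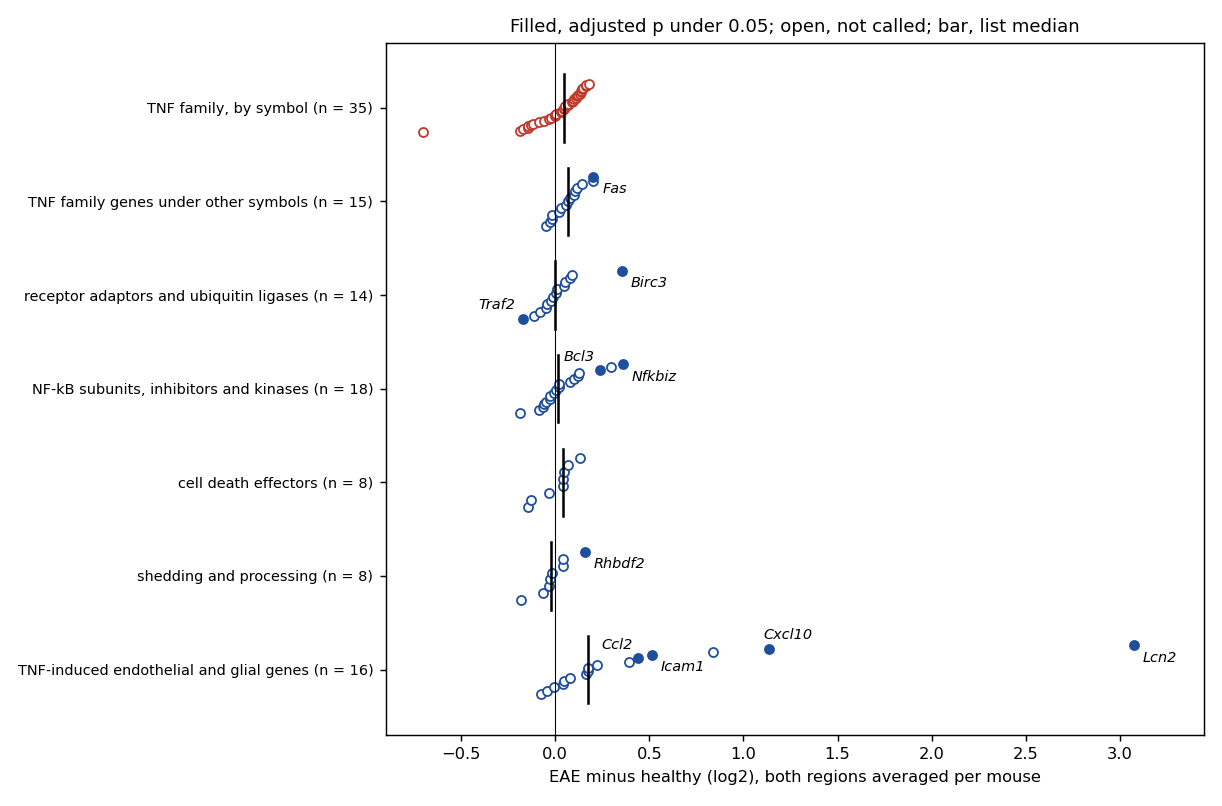
Change with EAE of each gene of the TNF family and of 6 pathway lists, as log2 EAE minus healthy with both regions averaged per mouse. Each point is a gene, filled points passed an adjusted p of 0.05 and are named, and vertical bars are list medians. No family gene under the naming rule is filled, and Lcn2 at 3.07 lies farthest to the right.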

How the data were processed

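Motor and sensory cortex of 6 EAE and 4 healthy mice were measured on Affymetrix arrays of 45101 probe sets. The authors deposited log2 values, which span 3.79 to 15.1. Per the submitters' processing notes the tools were RMA, which compresses low signal, and Partek. The distributions of the deposited arrays were not fully equal, with medians of 8.22 to 8.32. Groups, mice and cohorts come from the labels, and p-values measure the spread between mice. The 2 arrays of a mouse share an animal number in the labels, and their deviations from the group means correlated at 0.163 to 0.587, except in EAE mouse 3 at -0.0316.

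The platform annotation gave names to probe sets: 34958 had 1 symbol, 932 several and 9211 none listed. The 35 family genes came from 60 probe sets, and all 60 matched a RefSeq table by Entrez identifier. The brightest probe set stood for each of 18194 genes. Linear models were fitted in limma 3.58.1 (R 4.3.3; two-sided moderated tests by lmFit and eBayes, with cohort as a covariate, or with mouse as a block between regions), with a Benjamini-Hochberg adjusted p under 0.05 as the threshold; each adjusted p printed for a gene is from limma. Changes are log2 EAE minus healthy or motor minus sensory. Of 35 members, 22 get full values: those called, those with an unadjusted p under 0.05 in both regions or among the 8 smallest p of a region, and a preset list; the other 13 are given by value or range. The members, lists and rules were chosen with earlier results of these data known. On simulated data 100 of 18194 genes were changed by a log2 of 0.5 and another 100 by 1. Of those changed by 0.5, 81% were recovered in motor cortex, 87% in sensory cortex and 95% for their average. For the regional difference in effect 53% were recovered, and for the comparison of regions 96%. The simulated arrays were drawn independently, with no mouse or cohort effect, so these shares need not hold for the real arrays. No change below 0.5 was simulated, and every member but Tnfrsf25 had a smaller estimated change with EAE. The shares therefore do not say how often changes of the members' size would be called. The alternatives tried are listed in the closing section.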

Additional observations from a re-analysis of the deposited data

Results flagged for a closer look

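Of 88 groups of arrays examined for the 22 members with full values, 7 held an array far from its group, meaning that its gap to the nearest other array was a larger share of the group's range than Dixon's 95% critical value. Chance alone flags about 1 in 20 groups. Tnf had its highest value in motor cortex of EAE mouse 1, at 8.027 beside 7.823 in the next array, and in sensory cortex of EAE mouse 3, at 7.903 beside 7.71. Tnfaip6 stood at 8.613 in sensory cortex of healthy mouse 1, beside 8.362. Tnfaip8l2 stood at 8.051 in motor cortex of EAE mouse 4, beside 7.871. Tnfrsf12a and Tnfsf4 were lowest in motor cortex of healthy mouse 4, at 8.965 beside 9.148 and at 6.843 beside 6.983. Tnfrsf1b stood at 8.261 in sensory cortex of healthy mouse 4, beside 8.404. The arrays of healthy mouse 4 in motor cortex and healthy mouse 1 in sensory cortex were processed on another day than the rest, and the part of that day in these values was not tested.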

How the results depend on the processing

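No alternative turned the sign of a member's called change: of the single-member results recomputed, 3311 kept their side of the threshold, 24 passed it newly, 10 lost it and 0 turned. All-gene counts moved more. With the single array of the second processing day left out in each region, 194 genes passed in motor and 118 in sensory cortex, with 0 members in each. For the average and between regions, healthy mice 1 and 4 were left out whole. There 6 and 1531 genes passed, with 0 and 2 members. Within cohort 1 these counts were 9, 0, 0 and 523 genes, and within cohort 2 they were 16, 141, 574 and 1003, with 0 members except Tnfaip3 between regions in cohort 2. Between regions 728 genes passed in EAE mice alone and 1338 in healthy mice alone, with 1 member each. In sensory cortex 782 genes passed with the dimmest 6064 genes left out, 800 with a trended robust eBayes and 1015 with a random block, the last with 1 member, Tnfrsf1a. Without the cohort covariate 1 member passed in motor cortex (Tnfaip8) and 1 for the average (Tnfrsf25), and with the dimmest genes left out, which kept 18 of 35 members, again 1 and 1 (the same 2 genes). Between regions 4 members passed with quantile normalization, 4 with the dimmest genes left out, 3 with the trended robust eBayes and 1 with the mean of probe sets. Quantile normalization gave 120 higher and 227 lower genes in motor cortex (94 and 316 in the values reported), 193 and 182 in sensory cortex (164 and 274) and 450 and 603 for the average (405 and 1026).

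By the labels, replicate numbers shared by EAE and healthy mice belong to different animals, so they do not pair the mice. Deviations of arrays that share a number correlated at 0.0156 to 0.292 in motor and -0.250 to 0.397 in sensory cortex. These values overlap those of the 2 arrays of a mouse and cannot decide the pairing. With the replicate number as a block 389 genes passed in motor cortex, 5 in sensory cortex, 919 for the average and 0 for the difference between regions, and 1, 0, 2 and 0 members (Tnfrsf25; Tnfaip6 and Tnfrsf25). Without the mouse block 1968 genes and 2 members passed between regions. Leaving out 1 mouse at a time gave 145 to 470 genes in motor cortex, 19 to 1009 in sensory cortex, 472 to 1813 for the average, 0 to 0 for the difference and 1925 to 2912 between regions, and 0 to 2, 0 to 1, 0 to 1, 0 to 0 and 1 to 4 members. The members were Tnfaip8 and Tnfrsf25 in motor cortex without EAE mouse 4, Tnfsf14 in sensory cortex and for the average without EAE mouse 1, and for the average Tnfrsf25 without EAE mouse 3 or 4 and Tnfsf13os without healthy mouse 2. The lowest all-gene counts came without healthy mouse 1 in motor cortex and without healthy mouse 4 in sensory cortex and for the average. The cause of these shifts was not tested. Precision is limited by 4 healthy mice, and Tnfrsf25 has a single probe set.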

Other observations

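Of the probe sets, 3 carry several symbols that include a family member and were left out of the counts above. The probe set shared by Tnfsfm13, Tnfsf13 and Tnfsf12, the loci of the ligands APRIL and TWEAK, changed with EAE by -0.23 ± 0.11 in motor cortex and -0.25 ± 0.08 in sensory cortex (SE, limma adjusted p = 0.432 and 0.163). Its motor minus sensory value was -0.19 ± 0.05 (SE, limma adjusted p = 0.0294). For this probe set the adjustment was over all 45101 probe sets, and not over the 18194 genes used for the members. A second probe set, shared by Tnfsfm13 and Tnfsf12, had -0.05 ± 0.06 and -0.10 ± 0.06 with EAE (SE). The probe set shared by Tnfrsf22 and Tnfrsf23 had -0.07 ± 0.08 and -0.15 ± 0.08 (SE).

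Sensory cortex of EAE mouse 3 gave the highest or lowest value of its group for 21 of 35 family members, 14 of them highest, and for 48.9% of all genes, where an even share over 6 arrays is 33.3%. Among the healthy arrays, sensory cortex of mouse 4 was lowest for 15 members and highest for 0 (25.7% and 25.6% of all genes), and motor cortex of mouse 4 was lowest for 15 and highest for 1 (32.7% and 22.9%). Without EAE mouse 3, 0 members passed in sensory cortex, as with it.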
